A study of Mus musculus with 8 samples.

Results

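Oxidative phosphorylation genes were examined across whole testes of mice with a floxed Dmrt1, the gene of a sex-determining transcription factor made in the testis. The genes were taken by name: every probe set with exactly 1 gene symbol beginning with Nduf, Uqcr or Atp5, or with Cox and a digit. These were 188 probe sets of 94 genes, out of 18194 genes on the array. A gene with several was read from its brightest probe set, by mean log2 intensity over the 8 arrays. By role they were 34 subunits of complex I, 8 of complex III, 18 of complex IV (counting Ndufa4 and Ndufa4l2), 17 of ATP synthase and 17 assembly factors or related genes. A gene was tested where at least 2 arrays reached log2 4, an intensity of 16; 92 of the 94 did, and Ndufb4 and Cox8b did not. All the mice were males of mixed C57BL6/6J and 129 background at postnatal day 28, all carried 2 floxed Dmrt1 alleles (Dmrt1 flox/flox), and whole-testis RNA was hybridized, 1 array per sample. The control group had no Cre (n = 2), another had Dhh-cre (n = 2) and the last had SF1-cre, driven by the Nr5a1 promoter and called Sf1-Cre here (n = 4). The submitters describe both promoters as specific to Sertoli cells. The labels call the samples biological replicates without saying how many mice each holds, so a p-value measures only the spread between these samples.

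The respiratory chain of the inner mitochondrial membrane passes electrons from NADH through complex I, complex III and cytochrome c to complex IV, cytochrome c oxidase, and the resulting proton gradient drives ATP synthase. Several subunits of complex IV have paralogs used in particular tissues. Cox6b2, Cox7b2 and Cox8c are testis isoforms that stand in for Cox6b1, Cox7b and Cox8a, and Cyct is the testis form of cytochrome c. Cox7a1, Cox6a2 and Cox8b are isoforms of heart and skeletal muscle, Cox4i2 is the lung form of Cox4i1, and Ndufa4l2 is a paralog of Ndufa4 known for its response to low oxygen. Germ cells change their energy metabolism as they pass through meiosis, which gives these isoforms their interest in the testis.

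Array-wide facts set the frame for these genes. Median intensity was 13.7 to 15.9 on the 8 arrays. The Dmrt1 signal was 361.5 and 433.0 in the controls, 137.2 to 237.4 in the Sf1-Cre arrays and 1377.0 and 979.3 in the arrays labelled Dhh-Cre. The Dhh-Cre label names a Dmrt1 knockout in Sertoli cells, yet the signal there was above that of the controls. Which cells of the whole testis gave that signal was not tested. Each direction below that involves the Dhh-Cre arrays rests on the label. A list of 22 spermatid markers summed to an intensity of 110790.2 and 124093.7 in the controls, 1928.1 and 14621.2 in Dhh-Cre and 4039.1 to 15795.0 in Sf1-Cre, and all 22 fell in Sf1-Cre (21 in Dhh-Cre). The 21 spermatocyte markers on the array summed to 51364.3 and 52462.6, 25474.6 and 29617.9, and 19723.5 to 35962.0; 15 fell and 0 rose in Sf1-Cre (limma, also 0 higher at unadjusted p under 0.05), and 10 fell and 2 rose in Dhh-Cre. Most lists for other cells were higher. Over all tested genes 46.6% rose and 33.2% fell in Sf1-Cre, and 49.1% rose and 30.5% fell in Dhh-Cre. The 15 macrophage genes, 2 of them with a control mean under log2 4, all rose in both lines. They summed to 5502.5 and 5803.0 in controls, 28535.8 and 28606.1 in Dhh-Cre and 35125.8 to 40273.4 in Sf1-Cre. The Leydig list rose in 7 of 8 genes in Sf1-Cre and 6 in Dhh-Cre, its sum going from 5876.9 and 6771.4 to between 20613.6 and 33552.8, and the Sertoli list rose in 12 of 19 and fell in 4 in Sf1-Cre, and rose in 16 and fell in 0 in Dhh-Cre (limma, also 0 lower at unadjusted p under 0.05). The granulosa list rose in 12 of 12 tested genes in Sf1-Cre and 10 in Dhh-Cre, its sum going from 1108.2 and 1139.0 to 11210.4 to 14960.7 in Sf1-Cre and 7451.1 and 8304.0 in Dhh-Cre. Of the 14 granulosa genes on the array, 12 had a control mean under log2 4. A gene tested only through its Cre arrays had little room to fall, so these granulosa counts follow partly from the filter. The spermatogonia list summed to 2315.5 and 2525.7 in controls, 5551.8 and 6458.3 in Dhh-Cre and 2990.5 to 3331.1 in Sf1-Cre. In whole testes, fewer cells of a type and less RNA per cell cannot be told apart, and the part of this change in cell makeup in each result below was not tested.

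Most of the 92 tested genes moved by less than 2-fold in either line, and as deposited more rose than fell, an order that housekeeping centring (below) turned round. The fit was limma's moderated test on log2 intensity over all 8 arrays, with Benjamini-Hochberg adjustment over 13802 genes and adjusted p under 0.05 as passing. In Sf1-Cre against control 54 rose (52 without Cox4i2 and Ndufaf6, which reached the floor on 2 arrays only through Cre arrays), where 46.6% of all tested genes rose, and 9 fell, where 33.2% of all fell. In Dhh-Cre against the same controls 45 rose (49.1% of all genes), or 44 without those 2 genes, and 8 fell (30.5% of all). The median log2 change was 0.49 in Sf1-Cre and 0.42 in Dhh-Cre, beside 0.34 and 0.54 over all genes tested. Large changes were less common than in the background: 20 rose at least 2-fold in Sf1-Cre (34.8% of all genes did) and 3 fell as far (26.1%), and in Dhh-Cre 19 rose (39%) and 6 fell (25.6%). These shares were not tested against each other, and the background is not matched for level on the array, by which counts are given below. The direction of small rises depends on the scaling: with each array centred on the median of a housekeeping list, of whose 13 tested genes 10 themselves rose in Sf1-Cre, 5 rose and 76 fell in Sf1-Cre and 4 rose and 75 fell in Dhh-Cre. Over all genes that centring gave 2043 higher and 9424 lower in Sf1-Cre and 2014 and 8550 in Dhh-Cre, against 6434 and 4586, and 6781 and 4206, as deposited, and it moved the all-gene median from 0.34 to -1.36 and from 0.54 to -1.16. Those shifts were larger than the median change of the housekeeping genes themselves, 0.78 in Sf1-Cre and 0.76 in Dhh-Cre. The centring thus took off more than the typical gene of its list rose. The genes that still rose under it were Cox8a, Cox7a1, Ndufa4 and Ndufa1 in both lines, and Atp5g2 in Sf1-Cre.

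**Figure D1:**
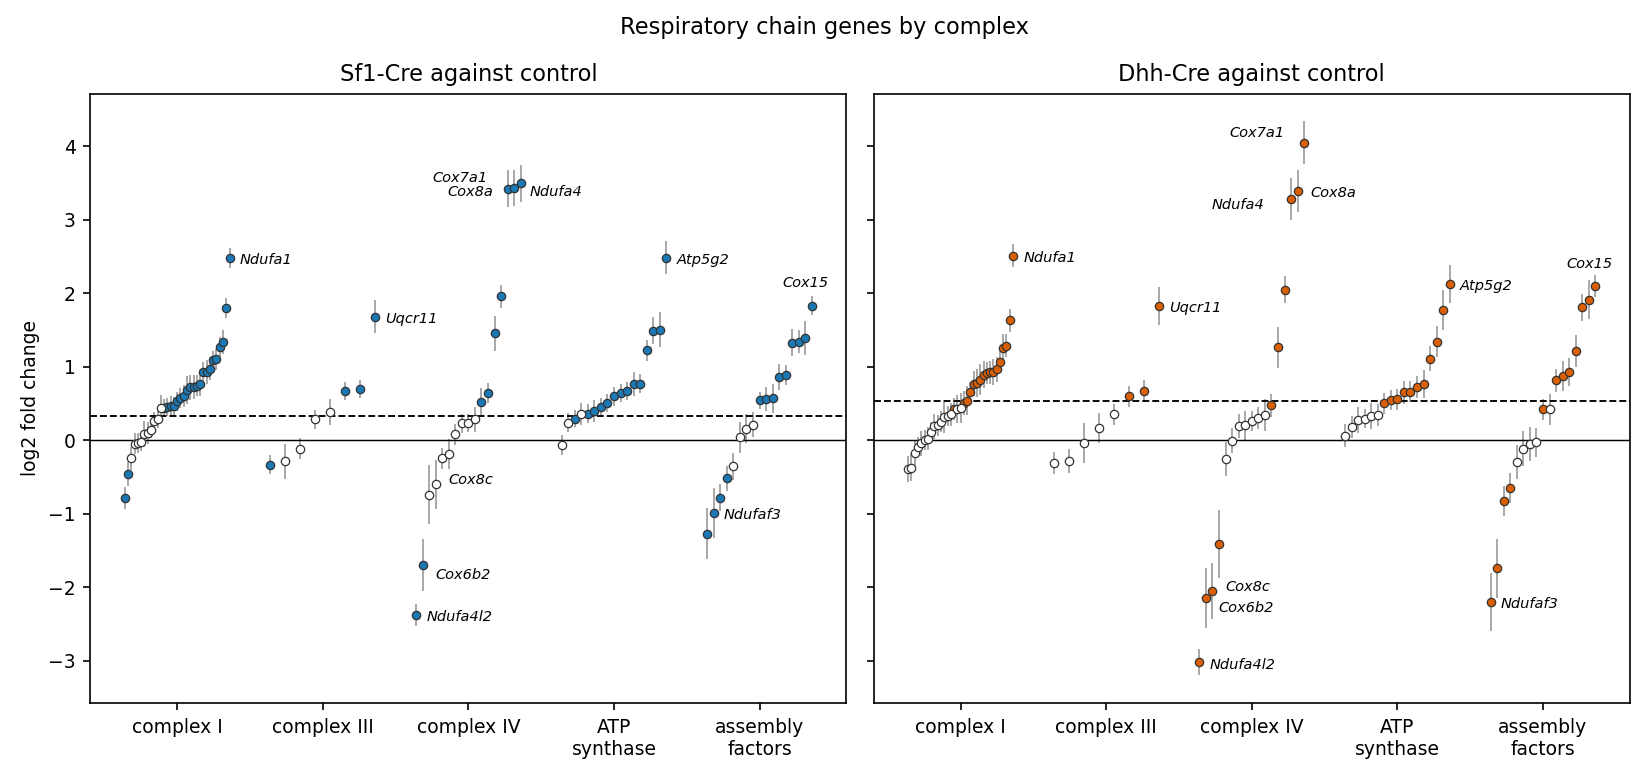
Log2 fold change (vertical axis) with limma's standard error (bars) of each tested respiratory chain gene, grouped by complex on the horizontal axis and ordered by size within it, for Sf1-Cre (left) and Dhh-Cre (right) against control. Filled points passed at adjusted p under 0.05, and the dashed line is the median of all 13802 genes, 0.34 and 0.54; complex IV spans the widest range in both panels, with Cox7a1, Cox8a and Ndufa4 at the top and Ndufa4l2 at the bottom.

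The testis isoform Cox6b2 and its ubiquitous paralog Cox6b1, which join the intermembrane face of complex IV, moved in opposite directions. Cox6b2 lay at log2 12.11 and 12.15 in the controls, 9.93 and 10.04 in Dhh-Cre and 11.12, 10.78, 10.01 and 9.83 in Sf1-Cre, so no Cre array reached a control. It fell 3.24-fold in Sf1-Cre (log2 change -1.69 ± 0.35 SE, limma adjusted p = 0.0025) and 4.42-fold in Dhh-Cre (-2.14 ± 0.41 SE, adjusted p = 0.0015). Cox6b1 was at 10.41 and 10.66 in the controls, 12.62 and 12.56 in Dhh-Cre and 12.30, 12.58, 12.46 and 12.65 in Sf1-Cre, again with no overlap. That is a rise of 3.89-fold in Sf1-Cre (1.96 ± 0.15 SE, adjusted p = 1.24e-05) and 4.15-fold in Dhh-Cre (2.05 ± 0.18 SE, adjusted p = 2.4e-05), which under housekeeping centring stayed above 0 but no longer passed (0.26 and 0.36). A second Cox6b1 probe set gave 2.49 and 2.26. Both genes lie on chromosome 7, and their start regions are printed here because the paralogs moved apart, with that of Cox7a1, a muscle isoform on the same chromosome that rose with Cox6b1. The 250 bases before each start, 5′ to 3′ on the gene's strand, are RefSeq sequence of build GRCm38.p6, at chr7:4753095-4753344 (minus strand) for Cox6b2, chr7:30626115-30626364 (minus) for Cox6b1 and chr7:30183921-30184170 (plus) for Cox7a1; capitals mark matches on either strand to CCAAT, to the Sp1 box GGGCGG or to the ETS string CCGGAAG.
Cox6b2: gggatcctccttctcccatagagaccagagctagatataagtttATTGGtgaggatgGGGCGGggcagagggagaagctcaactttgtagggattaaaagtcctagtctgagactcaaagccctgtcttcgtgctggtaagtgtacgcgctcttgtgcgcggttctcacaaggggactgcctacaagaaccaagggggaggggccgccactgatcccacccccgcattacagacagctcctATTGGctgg
Cox6b1: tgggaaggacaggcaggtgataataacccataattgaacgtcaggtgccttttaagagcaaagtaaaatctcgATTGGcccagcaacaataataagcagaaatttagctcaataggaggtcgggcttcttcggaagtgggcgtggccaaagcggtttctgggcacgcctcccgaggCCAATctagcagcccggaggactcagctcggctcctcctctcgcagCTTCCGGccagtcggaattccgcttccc
Cox7a1: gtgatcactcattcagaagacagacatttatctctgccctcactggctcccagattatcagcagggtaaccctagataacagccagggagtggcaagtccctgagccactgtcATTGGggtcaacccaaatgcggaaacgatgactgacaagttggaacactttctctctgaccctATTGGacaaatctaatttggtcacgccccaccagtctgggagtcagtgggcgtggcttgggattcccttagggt
Cox6b1 holds the ETS string 28 to 22 bases before its start and CCAAT at 74 to 70 and 177 to 173. Cox6b2 has no ETS match in this window but holds CCAAT at 206 to 202 and 9 to 5 and the Sp1 box at 193 to 188, while Cox7a1 holds CCAAT at 137 to 133 and 74 to 70. A match is only a description of these letters and not a site of binding.

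The other testis isoforms fell in Dhh-Cre and by a smaller amount that did not pass in Sf1-Cre. Cox8c, a small membrane-spanning subunit of complex IV on chromosome 12, was at log2 11.32 and 11.08 in the controls, 8.61 and 9.69 in Dhh-Cre and 10.74, 11.02, 10.47 and 10.18 in Sf1-Cre. It fell 4.14-fold in Dhh-Cre (-2.05 ± 0.38 SE, limma adjusted p = 0.00141); in Sf1-Cre the change was -0.60 ± 0.33 SE (adjusted p = 0.13). Every Sf1-Cre array was below both controls and above both Dhh-Cre arrays. Its partner Cox8a, on chromosome 19, was at 5.30 and 5.60 in the controls, 8.80 and 8.89 in Dhh-Cre and 8.38, 8.96, 8.87 and 9.32 in Sf1-Cre. Cox8a thus rose 10.8-fold in Sf1-Cre (3.43 ± 0.25 SE, adjusted p = 8.34e-06) and 10.5-fold in Dhh-Cre (3.40 ± 0.29 SE, adjusted p = 2.16e-05), and its second probe set gave 2.94 and 3.04. Cox7b2, on chromosome 5, was at 11.33 and 11.25 in the controls, 9.56 and 10.20 in Dhh-Cre and 11.18, 10.96, 10.31 and 9.74 in Sf1-Cre. Its fall passed in Dhh-Cre (-1.41 ± 0.46 SE, adjusted p = 0.0217) but not in Sf1-Cre (-0.74 ± 0.40 SE, adjusted p = 0.12). The Dhh-Cre call was lost without control 1 (-1.37), without control 2 (-1.45) or without Dhh-Cre array 1 (-1.09), and without Sf1-Cre array 1 the Sf1-Cre value of -0.95 passed. With housekeeping centring the Sf1-Cre falls of Cox7b2 (-2.43) and Cox8c (-2.30) passed as well. Cox7b is not analysed here.

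The difference between isoform and partner within an array does not move with the scaling of whole arrays. Cox6b2 minus Cox6b1 was 1.70 and 1.49 in the controls, -2.69 and -2.51 in Dhh-Cre and -1.18, -1.80, -2.44 and -2.82 in Sf1-Cre. The controls averaged 1.60 ± 0.15 (SD, n = 2), Dhh-Cre -2.60 ± 0.12 (SD, n = 2) and Sf1-Cre -2.06 ± 0.72 (SD, n = 4). All 6 Cre arrays lay below both controls, a change of -3.84 or 14.3-fold (2-sided exact permutation p = 0.0357, the smallest that 28 arrangements allow, and 0.0357 after Benjamini-Hochberg adjustment over the 2 pairs). Cox8c minus Cox8a was 6.02 and 5.48 in the controls, -0.20 and 0.80 in Dhh-Cre and 2.36, 2.05, 1.60 and 0.86 in Sf1-Cre. Its change was -4.50, or 22.7-fold, with the same exact permutation p of 0.0357, and 0.0357 adjusted. Sf1-Cre alone gave -3.66 and -4.03 (exact p = 0.0667, the smallest possible for 4 against 2 arrays), and Dhh-Cre alone -4.20 and -5.45 (exact p = 0.333, the smallest for 2 against 2). Between the lines the differences of 0.54 (exact p = 0.467) and 1.42 (exact p = 0.133, and 0.267 adjusted) did not pass. A change in such a difference shows that the 2 transcripts changed unequally, not which was the more abundant. In both pairs each gene alone already set every Cre array apart from both controls, in opposite directions. The p-values of the pairs against control therefore add little to the values per gene.

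**Figure D2:**
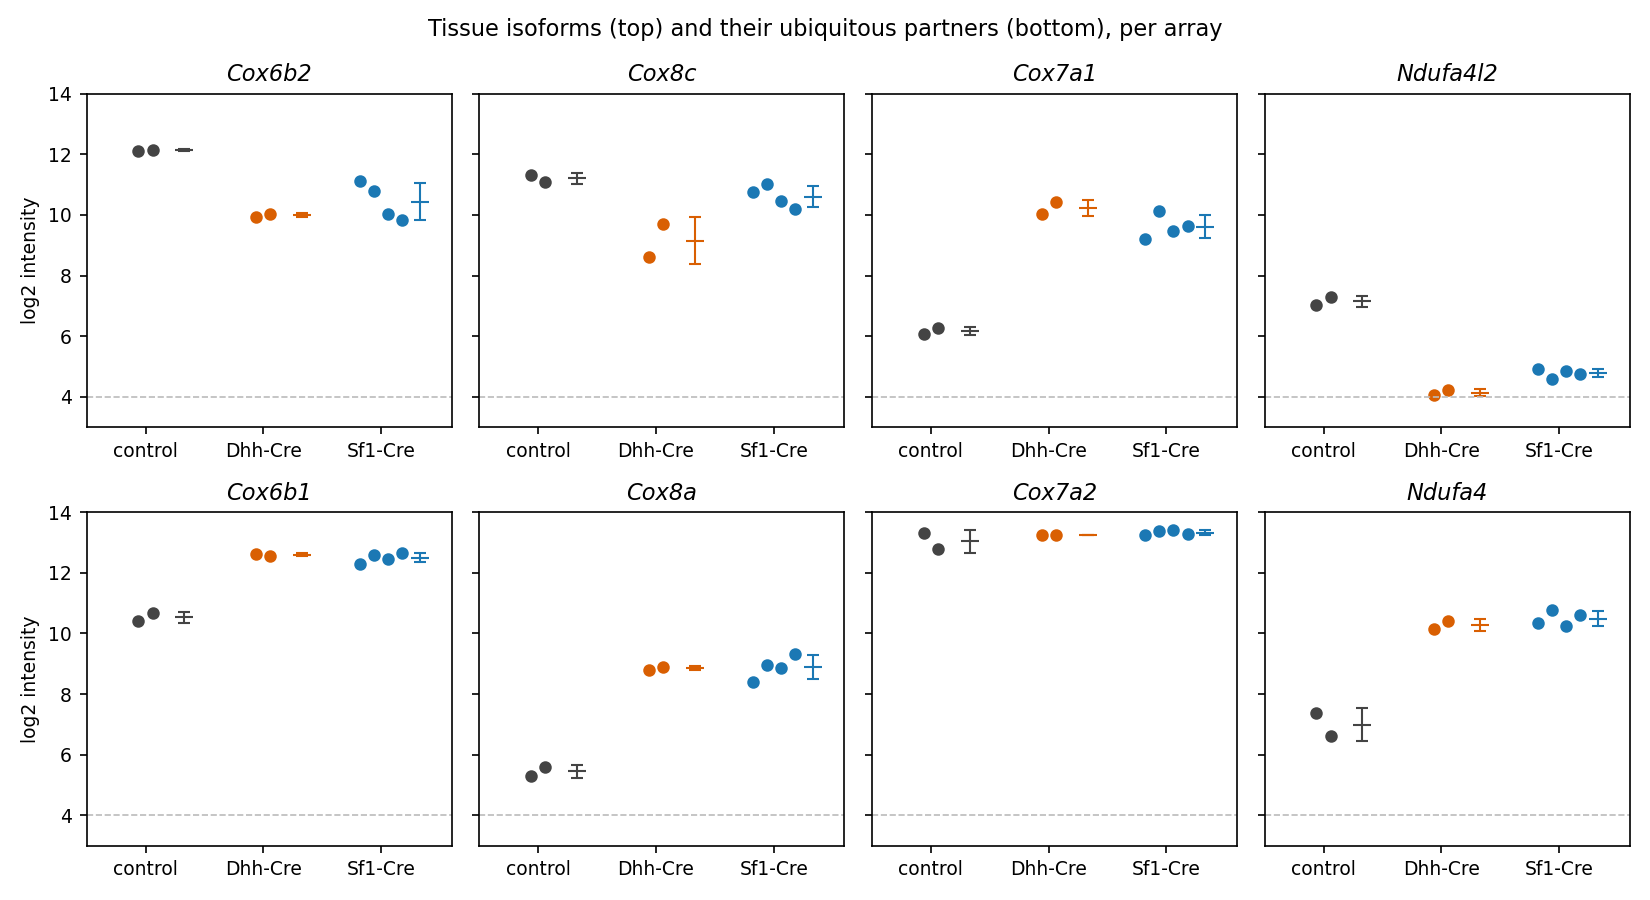
Log2 intensity (vertical axis) of 4 tissue isoforms (top) and their ubiquitous partners (bottom) on each array, by group, with the group mean and SD beside the points and a dashed line at the log2 4 floor. Cox6b2 and Cox8c are highest in the controls while Cox6b1 and Cox8a are lowest there; Cox7a2 stays between 12.76 and 13.40 throughout.

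Within each Cre line, though not across all arrays, the testis isoforms mostly ranked the arrays as the spermatid markers did. Among the Sf1-Cre arrays, array 1 was highest and array 4 lowest for Cox6b2, Cox7b2 and the spermatid sum (15795.0, 9366.4, 6332.3 and 4039.1 on arrays 1 to 4), and Cox8c differed only in being highest on array 2. Between the Dhh-Cre arrays, all 3 isoforms were lower on array 1, where the spermatid sum was 1928.1, than on array 2, where it was 14621.2. Across the lines the order broke: Dhh-Cre array 2 had a higher sum than Sf1-Cre arrays 2, 3 and 4, yet its Cox8c (9.69) was below all 4 Sf1-Cre arrays and its Cox6b2 (10.04) below Sf1-Cre array 2 (10.78). The sizes differed, since the median log2 change was -4.80 over the spermatid list and -0.90 over the spermatocyte list in Sf1-Cre, against -1.69, -0.74 and -0.60 for the isoforms. Whether lower germ cell content accounts for the isoform values was not tested. Cyct, which is outside the name rule, took the same order within each line: 11.13 and 11.04 in the controls, 9.06 and 10.06 in Dhh-Cre and 11.12, 10.91, 9.94 and 9.41 in Sf1-Cre. Its change passed in Dhh-Cre (-1.52 ± 0.58 SE, limma adjusted p = 0.0399) but not in Sf1-Cre (-0.74 ± 0.50 SE, adjusted p = 0.206). The somatic cytochrome c gene Cycs rose in both (0.51 ± 0.15 SE, adjusted p = 0.0155, and 1.10 ± 0.18 SE, adjusted p = 0.000597).

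Ndufaf2 and Ndufaf3, chaperones of complex I assembly rather than subunits, fell most among the 17 assembly factors of the set. Ndufaf2, on chromosome 13, was at log2 11.82 and 11.93 in the controls, 9.74 and 10.53 in Dhh-Cre and 11.22, 10.71, 10.53 and 9.97 in Sf1-Cre. It fell by 1.27 ± 0.35 SE in Sf1-Cre (limma adjusted p = 0.00996) and by 1.74 ± 0.40 SE in Dhh-Cre (adjusted p = 0.00426). Ndufaf3, on chromosome 9, was at 11.48 and 11.45, 8.86 and 9.67, and 10.97, 10.74, 10.37 and 9.84, falling by 0.98 ± 0.34 SE (adjusted p = 0.0278) and 2.20 ± 0.39 SE (adjusted p = 0.00109). Their Sf1-Cre arrays stood in the same order as the spermatid sum, and no Cre array reached a control. The Sf1-Cre call of Ndufaf2 was lost without control 2 (-1.22), and that of Ndufaf3 without control 1 (-0.97), control 2 (-0.999) or Sf1-Cre array 3 (-0.95). No other probe set of either gene was above the floor.

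**Figure D3:**
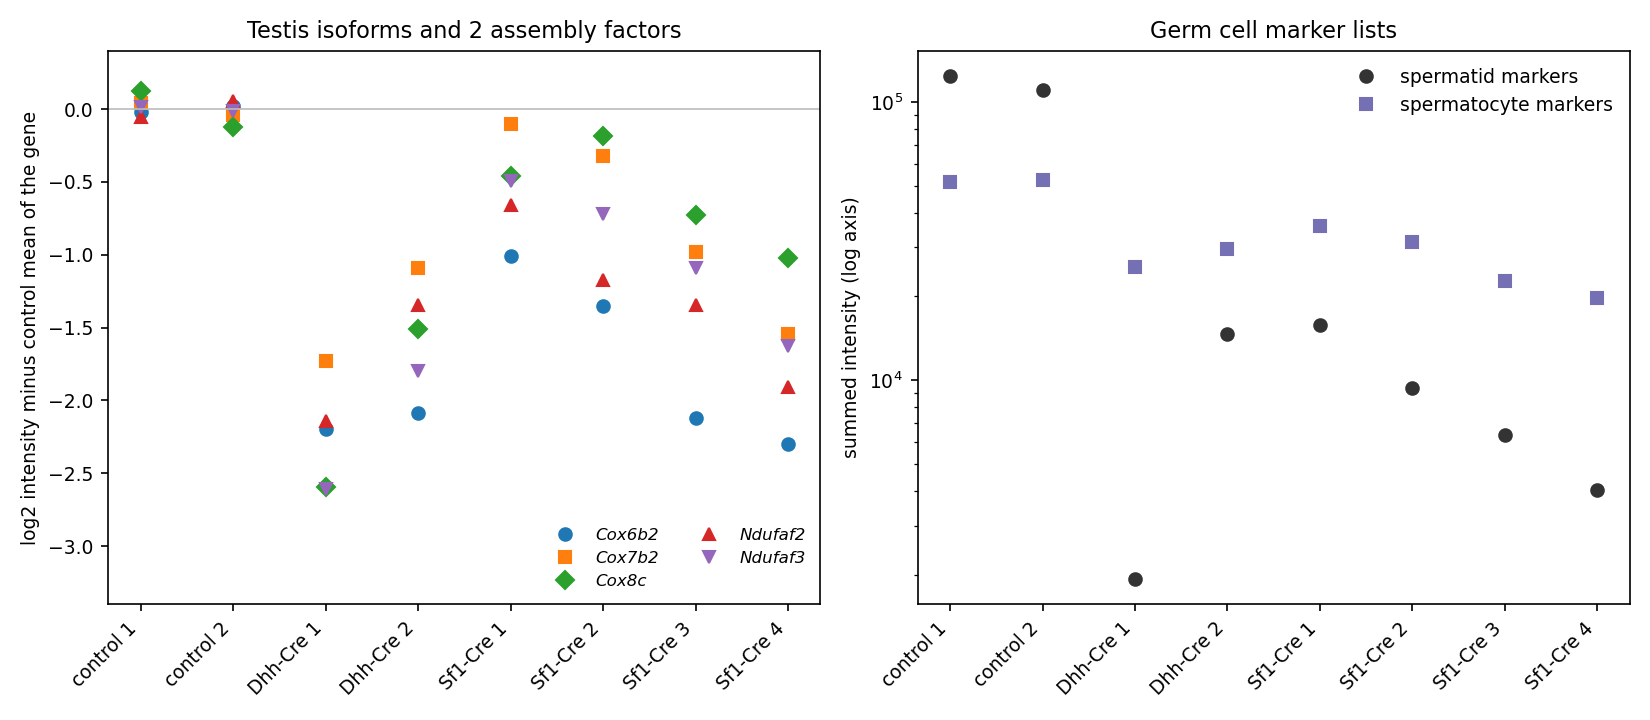
Left, log2 intensity of the 3 testis isoforms and of Ndufaf2 and Ndufaf3 on each array, minus the gene's control mean (grey line at 0); right, summed intensity of the spermatid and spermatocyte marker lists on a log axis. Within Sf1-Cre, array 1 is highest and array 4 lowest for Cox6b2, Cox7b2, Ndufaf2, Ndufaf3 and both sums; array numbers carry no order of their own.

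Cox7a1 and Ndufa4 were, with Cox8a, the 3 genes of the set that rose most in both lines, and Ndufa4l2 fell the most in both. Cox7a1, the striated muscle isoform of a subunit near the dimer contact of complex IV, was at log2 6.08 and 6.27 in the controls, 10.04 and 10.42 in Dhh-Cre and 9.20, 10.11, 9.48 and 9.62 in Sf1-Cre. It rose 10.8-fold in Sf1-Cre (3.43 ± 0.25 SE, limma adjusted p = 9.34e-06) and 16.6-fold in Dhh-Cre (4.05 ± 0.29 SE, adjusted p = 1.11e-05). Its partner Cox7a2 was at 13.30 and 12.76 in the controls and 13.23 to 13.40 in all Cre arrays (0.29 ± 0.17 SE in Sf1-Cre, adjusted p = 0.156); without control 1 the Sf1-Cre value was 0.55 and passed. Of the 14 genes of the skeletal and cardiac muscle list 7 were tested, of which 2 rose and 4 fell in Sf1-Cre and 6 rose in Dhh-Cre. The list's sum was 285.5 and 313.9 in the controls, 725.5 and 832.3 in Dhh-Cre and 195.8 to 225.7 in Sf1-Cre. Means under the floor were those of 9 of the 14 in the controls, 7 in Dhh-Cre and 9 in Sf1-Cre. The part of striated muscle in the Cox7a1 value was not tested. The peritubular and smooth muscle list rose in 8 of 10 genes in Sf1-Cre and 9 in Dhh-Cre, beside 46.6% and 49.1% of all genes, and its part in the Cox7a1 value was not tested.

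Ndufa4, once counted in complex I and now in complex IV, was at log2 7.37 and 6.61 in the controls, 10.13 and 10.42 in Dhh-Cre and 10.36, 10.77, 10.23 and 10.59 in Sf1-Cre. It rose 11.3-fold in Sf1-Cre (3.50 ± 0.25 SE, limma adjusted p = 7.81e-06) and 9.76-fold in Dhh-Cre (3.29 ± 0.29 SE, adjusted p = 2.56e-05). Ndufa4l2, on chromosome 10, was at 7.02 and 7.28 in the controls, 4.05 and 4.21 in Dhh-Cre and 4.90, 4.60, 4.85 and 4.74 in Sf1-Cre, so the Cre arrays were near the floor. The fall was 5.2-fold in Sf1-Cre (-2.38 ± 0.15 SE, adjusted p = 4.73e-06) and 8.13-fold in Dhh-Cre (-3.02 ± 0.18 SE, adjusted p = 4.9e-06). Within arrays, Ndufa4l2 minus Ndufa4 was -0.34 and 0.67 in the controls and between -6.21 and -5.37 in all 6 Cre arrays. The remaining tissue isoforms were near or under the floor. Cox4i2 was at 3.43 and 3.86 in the controls, the Cre arrays lying at 3.83 to 4.37; it entered the test only because Cre arrays reached the floor, so its call in Sf1-Cre is not read as a rise, and with values under the floor raised to it the change was 0.17. Cox6a2 was at 3.83 to 4.47 on all arrays, and Cox8b, at 2.61 to 3.29, was not tested. Their partners Cox4i1 and Cox6a1 changed by 0.23 ± 0.12 SE (adjusted p = 0.109) and 0.23 ± 0.13 SE (adjusted p = 0.136) in Sf1-Cre. A second Cox6a1 probe set gave 0.96 and 0.93 in Sf1-Cre and Dhh-Cre, and with the mean of both the changes of 0.59 and 0.62 passed. With trended moderation both genes passed in both lines.

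Outside the tissue isoforms, the complex IV subunits moved in a narrow range apart from Cox8a, Ndufa4, Cox6b1 and Cox7c. Of 17 tested complex IV genes 7 passed upward in Sf1-Cre (Cox5b, Cox6b1, Cox7a1, Cox7c, Cox8a, Ndufa4 and, tested only through its Cre arrays, Cox4i2, without which 6 remain) and 2 fell (Cox6b2 and Ndufa4l2), with a median of 0.23, or -1.46 under housekeeping centring. In Dhh-Cre 6 rose and 4 fell, the median being 0.27, or -1.43 so centred. The rising shares were 41.2% in Sf1-Cre and 35.3% in Dhh-Cre, beside 46.6% and 49.1% of all genes. The falling shares were 11.8% and 23.5%, beside 33.2% and 30.5%. With the mean of all probe sets the Sf1-Cre median was 0.49. Cox7c was at log2 6.08 and 5.69 in the controls, the Cre arrays lying at 6.83 to 7.57, and rose by 1.46 ± 0.24 SE in Sf1-Cre (limma adjusted p = 0.00069). Cox5a did not pass in either line (-0.24 ± 0.14 SE, adjusted p = 0.154, and -0.00 ± 0.17 SE, adjusted p = 0.988).

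As deposited, most measured subunits of complex I, the NADH dehydrogenase, rose, and mostly by less than 2-fold; with housekeeping centring the medians lay below 0. Of 33 tested genes 21 rose (63.6%, beside 46.6% of all genes) and 2 fell (6.06% beside 33.2%) in Sf1-Cre, with a median of 0.53 (0.34 over all genes). In Dhh-Cre 17 rose (51.5% beside 49.1%), near the share of all genes, with a median of 0.44 (0.54 over all genes). There 0 fell, beside 30.5% of all genes (limma, also 0 lower at unadjusted p under 0.05). Those centred medians were -1.16 and -1.25, and with the mean of all probe sets the medians were 0.69 and 0.77. Of the 6 core subunits on the array, which include the carriers of its flavin and iron-sulfur centres, 5 rose in each line, with medians of 0.72 and 0.66. The largest rise was that of Ndufa1, an X-linked accessory subunit of the membrane arm, at 9.48 and 9.34 in the controls, 11.90 and 11.96 in Dhh-Cre and 11.83, 11.80, 11.88 and 12.06 in Sf1-Cre. It rose 5.58-fold in Sf1-Cre (2.48 ± 0.14 SE, adjusted p = 2.32e-06) and 5.72-fold in Dhh-Cre (2.52 ± 0.16 SE, adjusted p = 6.19e-06). Next came Ndufb11, the other X-linked subunit, at 11.03 and 11.14 in the controls, with all Cre arrays at 12.71 to 13.04. Ndufb11 rose 3.49-fold in Sf1-Cre (1.80 ± 0.13 SE, adjusted p = 9.29e-06) and 3.11-fold in Dhh-Cre (1.64 ± 0.15 SE, adjusted p = 3.65e-05), but under housekeeping centring its values were 0.11, no longer passing, and -0.059. The 2 genes that fell in Sf1-Cre were accessory subunits: Ndufb1, at 5.61 and 5.59 in the controls and 4.72 to 4.95 in Sf1-Cre (-0.78 ± 0.15 SE, adjusted p = 0.00175), and Ndufa12, at 12.14 and 12.43 against 11.73 to 11.92 (-0.46 ± 0.16 SE, adjusted p = 0.0287). The Ndufa12 call was lost without control 2 (-0.31), Sf1-Cre array 1 (-0.43) or Sf1-Cre array 4 (-0.43).

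Ndufa1 and Ndufb11 can be read beside the other X-linked genes. Of 464 X-linked genes tested, 334 rose and 90 fell in Sf1-Cre, with a median of 1.58, and 367 rose and 68 fell in Dhh-Cre, with a median of 1.92. Among 13248 autosomal genes 6075 rose and 4442 fell in Sf1-Cre (median 0.31), and 6389 and 4087 in Dhh-Cre (median 0.49). Housekeeping centring lowers all of these medians alike. The 90 autosomal respiratory chain genes had medians of 0.47 and 0.42.

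Complex III carries electrons from ubiquinol to cytochrome c, and 1 of its 8 subunits under the name rule changed by 2-fold or more. Its subunit gene Cyc1, outside that rule, rose 2.73-fold and 3.16-fold in Sf1-Cre and Dhh-Cre. Of the 8, 3 rose and 1 fell in Sf1-Cre (median 0.34, and -1.36 under housekeeping centring). In Dhh-Cre 3 rose and 0 fell (median 0.26, and -1.43 so centred), with 0 lower also at unadjusted p under 0.05 in limma. The rising share was 37.5% in each line, beside 46.6% and 49.1% of all genes. The falling shares were 12.5% and 0%, beside 33.2% and 30.5%. With the mean of all probe sets the complex III medians were 0.21 and 0.09. By that mean Uqcr10, 1 of the 3 rises in each line, changed by -0.32 in Sf1-Cre and -1.01 in Dhh-Cre. The Dhh-Cre fall passed (limma adjusted p = 0.000465). Uqcr11, its smallest subunit, was at log2 9.63 and 10.19 in the controls, 11.68 and 11.81 in Dhh-Cre and 11.28, 11.60, 11.57 and 11.94 in Sf1-Cre, a rise of 3.21-fold in Sf1-Cre (1.68 ± 0.23 SE, adjusted p = 0.000224). That rise was -0.014 under housekeeping centring. Uqcrh, the hinge protein, rose by 0.70 ± 0.12 SE (adjusted p = 0.0011; -0.998 under housekeeping centring), from log2 11.91 and 11.93 in the controls to a range of 12.54 to 12.72. Uqcrfs1, the Rieske iron-sulfur protein, went from 10.57 and 10.68 in the controls to between 10.18 and 10.37 in Sf1-Cre (-0.33 ± 0.13 SE, adjusted p = 0.0448), a call that was lost whichever array was left out (values from -0.38 to -0.27). Uqcrc2, a core protein, did not pass (-0.11 ± 0.14 SE, adjusted p = 0.491).

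Of the 5 roles ATP synthase had the highest share of rising genes as deposited, though with housekeeping centring its medians too were below 0. Of 17 tested subunits 14 rose in Sf1-Cre (82.4%, beside 46.6% of all genes) and 11 in Dhh-Cre (64.7% beside 49.1%). None fell in either (limma, also 0 lower at unadjusted p under 0.05), beside 33.2% and 30.5% of all genes. The medians were 0.60 and 0.56, or -1.09 and -1.14 under housekeeping centring. Over all genes the deposited medians were 0.34 and 0.54, so that of ATP synthase in Dhh-Cre was near the background. The 3 genes of the membrane c-ring, whose products differ in their targeting peptides but give the same mature subunit, each rose at least 2-fold in both lines. Atp5g2, on chromosome 15, was at log2 7.43 and 7.91 in the controls, 9.54 and 10.05 in Dhh-Cre and 9.92, 10.18, 10.41 and 10.11 in Sf1-Cre. It rose 5.61-fold in Sf1-Cre (2.49 ± 0.22 SE, adjusted p = 2.46e-05) and 4.37-fold in Dhh-Cre (2.13 ± 0.26 SE, adjusted p = 0.000126). Atp5g1 was at 9.32 and 9.69, 11.34 and 11.22, and 10.65, 10.86, 11.07 and 11.48, a rise of 2.85-fold in Sf1-Cre (1.51 ± 0.24 SE, adjusted p = 0.000552; -0.19 under housekeeping centring) and 3.43-fold in Dhh-Cre. Atp5g3 rose 2.34-fold and 2.16-fold. The 5 subunits of the catalytic F1 part rose less, all 5 passing in Sf1-Cre (median 0.51) and 4 in Dhh-Cre (median 0.56). Atp5o, part of the stalk, did not pass (-0.06 ± 0.14 SE, adjusted p = 0.699).

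Assembly factors rose and fell in shares near those of all genes. Of 17 tested, 9 rose (52.9%, beside 46.6% of all genes) and 4 fell (23.5% beside 33.2%) in Sf1-Cre (median 0.55), and 8 rose (47.1% beside 49.1%) and 4 fell (23.5% beside 30.5%) in Dhh-Cre (median 0.42), with medians of -1.15 and -1.27 under housekeeping centring. Cox15, which makes the heme A of complex IV, rose most, from log2 8.71 and 8.89 in the controls to 10.97 and 10.84 in Dhh-Cre and 10.62, 10.57, 10.69 and 10.67 in Sf1-Cre. The rise was 3.56-fold in Sf1-Cre (1.83 ± 0.13 SE, limma adjusted p = 7.32e-06) and 4.28-fold in Dhh-Cre (2.10 ± 0.15 SE, adjusted p = 1.03e-05), but did not pass under housekeeping centring (0.14 and 0.40). Ndufaf6, a complex I factor, was at the floor in the controls (4.02 and 3.99), entering the test through its Cre arrays at 4.98 to 6.01; its changes of 1.39 in Sf1-Cre and 1.92 in Dhh-Cre are given as values only (-0.30 and 0.22 under housekeeping centring). Besides Ndufaf2 and Ndufaf3, the factors that fell in both lines were Ndufaf7 (-0.52 ± 0.17 SE and -0.82 ± 0.20 SE) and Cox11, a copper-binding factor of complex IV (-0.78 ± 0.18 SE and -0.65 ± 0.21 SE).

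**Figure D4:**
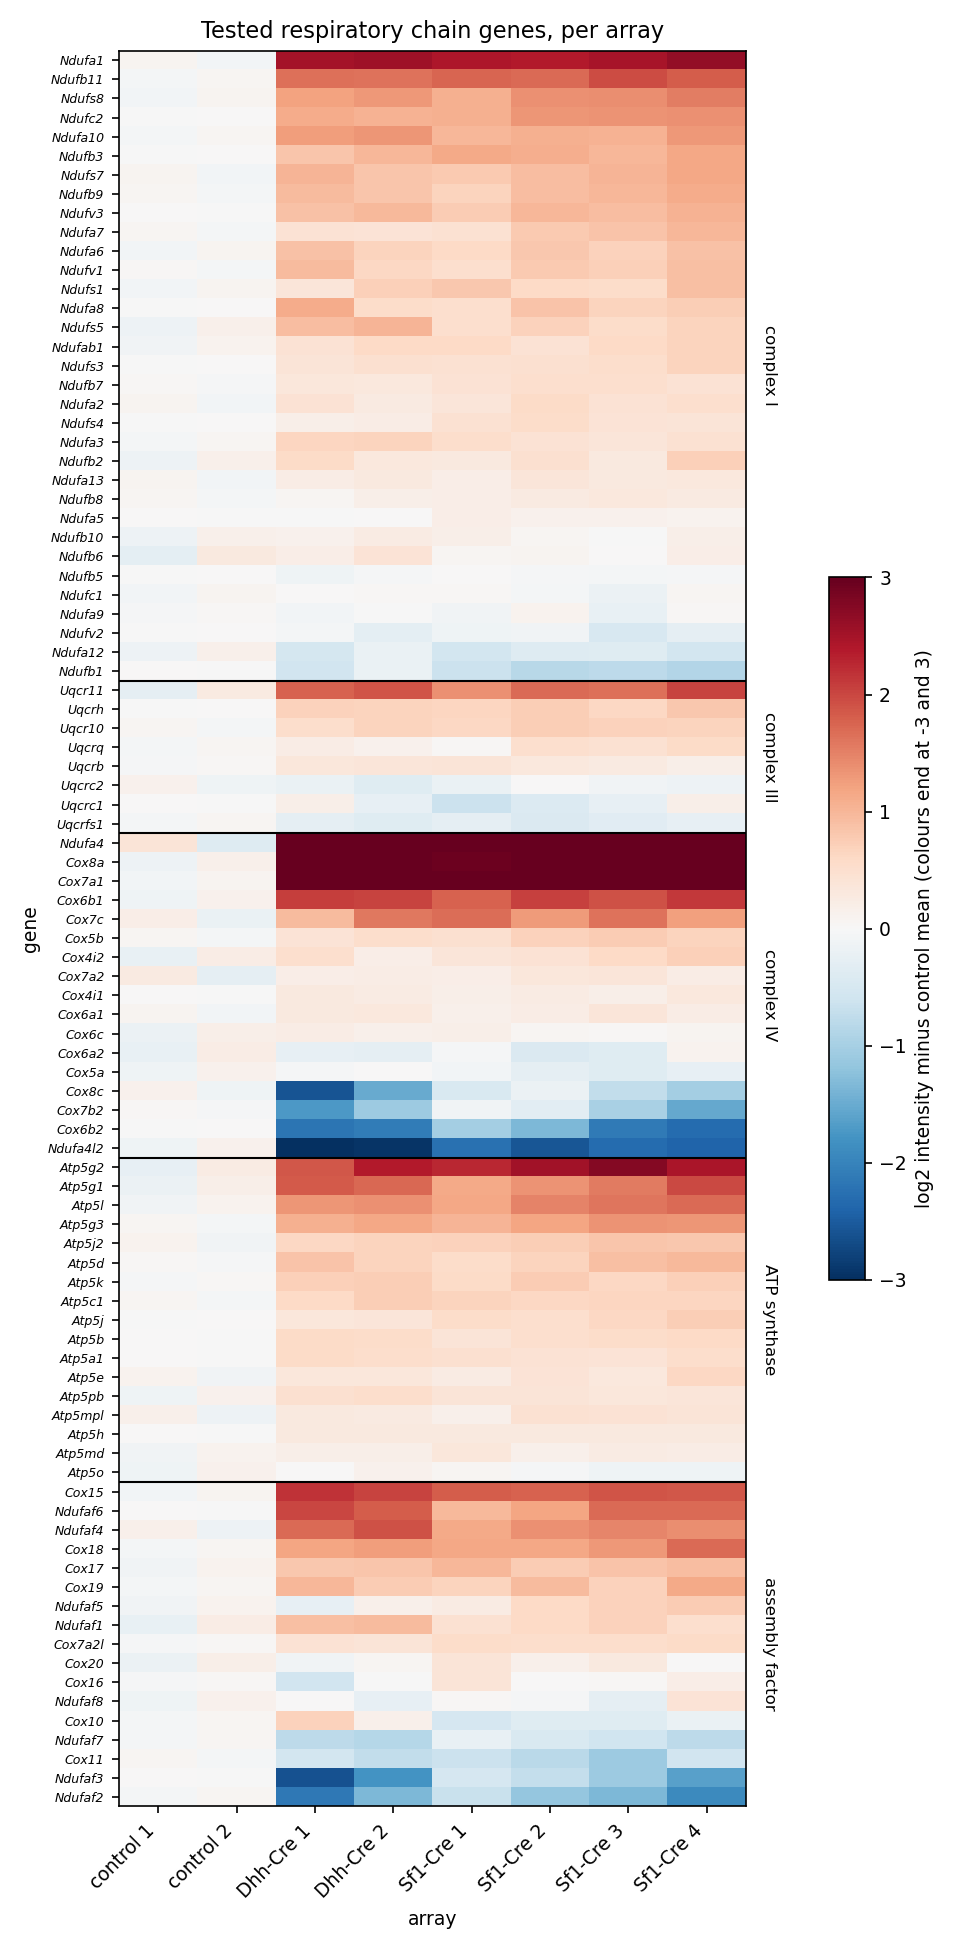
Log2 intensity minus the gene's control mean (colour, ending at -3 and 3) for the 92 tested genes (rows, by complex and then by Sf1-Cre change) on the 8 arrays (columns). The Cre arrays of both lines share the red rows of Ndufa4, Cox8a, Cox7a1, Ndufa1 and Atp5g2 and the blue rows of Ndufa4l2 and Cox6b2; most rows are pale.

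Set directly against each other, the Cre lines differed in 4 of the 92 genes: 3 were higher in Sf1-Cre (12.9% of all tested genes were) and 1 lower (11.8%). Cox8c was 2.74-fold higher in Sf1-Cre (1.45 ± 0.33 SE, limma adjusted p = 0.0185), Ndufaf3 2.32-fold (1.22 ± 0.34 SE, adjusted p = 0.0369) and Ndufa4l2 1.56-fold (0.64 ± 0.15 SE, adjusted p = 0.021). Cox10, which makes the heme O precursor of heme A, was lower in Sf1-Cre by 0.77 ± 0.18 SE (adjusted p = 0.0188). Its levels were log2 6.57 and 6.66 in the controls, 7.30 and 6.77 in Dhh-Cre and 6.12, 6.26, 6.25 and 6.42 in Sf1-Cre, and neither line passed against control (0.42 ± 0.21 SE, adjusted p = 0.0929, and -0.35 ± 0.18 SE, adjusted p = 0.101). Spink8, an epididymal gene, was at log2 11.55 and 4.48 on Dhh-Cre arrays 1 and 2. On Sf1-Cre arrays 1 to 4 Spink8 was at 12.05, 5.79, 10.49 and 6.46, and its part in these differences was not tested. Without Dhh-Cre array 1, the array with the lowest spermatid sum, 0 of the 92 passed in limma and the values were 0.91, 0.81, 0.56 and -0.51 for Cox8c, Ndufaf3, Ndufa4l2 and Cox10. The Ndufa4l2 call was also lost without Dhh-Cre array 2 (0.73) or Sf1-Cre array 3 (0.62), and that of Ndufaf3 without either control or Sf1-Cre array 1, 2 or 3 (1.05 to 1.25). Without Dhh-Cre array 2 the Cox10 change from control in Dhh-Cre was 0.69. Its fall from control in Sf1-Cre passed in limma under quantile normalization (-0.51) and with the mean of all probe sets (-0.47). A second Cox10 probe set gave -0.68 in Sf1-Cre and 0.03 in Dhh-Cre. Among the 68 tested subunits that are no tissue isoform 0 differed between the lines (limma, 2 lower in Sf1-Cre and 0 higher at unadjusted p under 0.05), with differences from -0.40 to 0.36. Both lines were compared with the same 2 controls, so their changes from control are not independent.

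Neighbouring genes of energy metabolism gave a wider frame. The 4 subunits of complex II, succinate dehydrogenase, are outside the name rule and rose in both lines: Sdha by 1.77 ± 0.15 SE and 1.71 ± 0.17 SE, Sdhb by 0.73 ± 0.16 SE and 0.66 ± 0.18 SE, Sdhc by 1.37 ± 0.15 SE and 1.40 ± 0.18 SE and Sdhd by 0.72 ± 0.12 SE and 0.77 ± 0.14 SE in Sf1-Cre and Dhh-Cre. Cyc1, the cytochrome c1 of complex III, rose by 1.45 ± 0.16 SE and 1.66 ± 0.19 SE. Of 13 tricarboxylic acid cycle genes 11 rose and 1 fell in Sf1-Cre (median 0.91), Idh2 by 3.18 ± 0.21 SE (limma adjusted p = 5.53e-06) and Idh3g by 2.49 ± 0.14 SE (adjusted p = 2.38e-06), both isocitrate dehydrogenase genes. Among 27 assembly factors with other names 17 rose and 4 fell (median 0.69): Surf1, a complex IV factor, rose 4.50-fold (2.17 ± 0.15 SE, adjusted p = 7.45e-06) and Atpaf2, a chaperone of ATP synthase, fell 5.39-fold (-2.43 ± 0.18 SE, adjusted p = 9.98e-06). The 17 rises include Coa7 (log2 3.84 and 3.26 in the controls) and Tmem126b (4.02 and 3.98), which entered the test only through Cre arrays. Of 13 mitochondrial biogenesis factors 3 rose and 6 fell in Sf1-Cre (median -0.42, beside 0.34 over all genes), and 4 rose and 5 fell in Dhh-Cre (median -0.35, beside 0.54). The coactivator gene Ppargc1b, counted among the falls of both lines, was at log2 5.71 and 5.93 in the controls and under the floor on every Cre array. It entered the test only through the controls and had little room to rise. Its Sf1-Cre change of -2.83, at least 3.54-fold, is therefore given as a value only. Tfb1m, a methyltransferase of mitochondrial ribosomal RNA, fell 3.53-fold in Sf1-Cre (-1.82 ± 0.18 SE, limma adjusted p = 4.12e-05). A list of outer membrane genes, import genes and ADP and ATP carriers had 6 of 13 rising and 3 falling in Sf1-Cre (median 0.27), its rising share being near that of all genes. For each list in this paragraph the background in Sf1-Cre is 46.6% of all tested genes rising and 33.2% falling, with a median of 0.34. Slc25a5, 1 of the carriers, was up 3.22-fold (1.69 ± 0.13 SE, limma adjusted p = 1.33e-05) and Timm50 up 2.41-fold (1.27 ± 0.14 SE, adjusted p = 8.49e-05). All of these medians are as deposited, and housekeeping centring lowers them like the rest.

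Other probe sets of a gene mostly shared its direction. Another probe set was above the floor for 47 of the 94 genes, and for 6 of them at least 1 had the opposite sign in Sf1-Cre. Uqcr10, a small complex III subunit, rose by 0.67 ± 0.13 SE in Sf1-Cre (limma adjusted p = 0.00143) and by 0.60 ± 0.15 SE in Dhh-Cre (adjusted p = 0.00557), while its other probe sets gave -0.96 and -0.67 in Sf1-Cre and -2.04 and -1.60 in Dhh-Cre. Ndufa3 rose by 0.44 ± 0.12 SE in Sf1-Cre (adjusted p = 0.011, lost without control 1 at 0.39), with 0.55 and -0.74 from its others. For Uqcrc2, Cox5a, Atp5o and Ndufaf8 the chosen probe set did not pass in either line, and the opposite one gave 0.68, 0.01, 0.44 and -0.34 in Sf1-Cre. Values of Uqcr10 and Ndufa3 are therefore given as those of 1 probe set.

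Changes are given here by level on the array, without a test. The 36 tested genes with a mean at log2 12 or above, where the highest signals on an array lay at 13.95 to 14.19, had 20 rises, 0 falls (limma, adjusted) and 3 rises of at least 2-fold in Sf1-Cre; of all 388 genes at that level 198 rose and 48 fell, 71 rising at least 2-fold. The 33 genes between 10 and 12 had 20 rises and 5 falls, beside 1150 and 557 of all 2283 at that level. Of these changes 9 and 2 were at least 2-fold, beside 710 and 288. The 23 below 10 had 14 and 4, beside 5086 and 3981 of all 11131. There 8 and 1 were at least 2-fold, beside 4017 and 3305. All 3 testis isoforms lay between 10 and 12.

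Start regions of the set were searched for 6 strings on both strands, none of which contains another. RefSeq windows of 250 bases before the start, in build GRCm38.p6, were found for 77 of the 94 genes (83 windows, as some genes have several starts), against 32851 windows of all genes. The ETS string CCGGAAG was in 20.5% of the set's windows and 6.91% of all, and the core GCGCATGC of the NRF1 motif in 8.43% and 2.26%; both factors are textbook regulators of nuclear genes for the respiratory chain. The element AAGGTCA read by SF1 was in 6.02% against 4.08%, and the DMRT1 core ACAATGT in 4.82% (Cox5a, Ndufb5, Ndufc2 and Uqcr10) against 2.56%. CCAAT was in 38.6% and 33.8%, and the Sp1 box GGGCGG in 42.2% and 32.7%. These shares are descriptions without a test, and a missing match says only that the letters are not in the window.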

How the data were processed

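Total RNA was extracted from testes with TRIzol and hybridized to 1-colour arrays of 45101 probe sets, per the labels' protocols. The deposited values are linear intensity made by GCRMA, per the submitters' processing notes. The sources used here give no GCRMA version and do not say whether arrays were set to a common distribution, which would scale away a shift of most RNAs. Log2 was taken of the deposited values. Of the probe sets 34958 list exactly 1 symbol, 932 several and 9211 none; 34754 were matched by Entrez identifier to GRCm38.p6 names, giving 18194 genes. The 11 probe sets that list a fitting symbol beside others were not used.

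The 3 groups were fitted in limma (version 3.58.1, under R 4.3.3; 3 group means, 5 residual and 2.73 prior degrees of freedom), leaving out 4392 low genes; the fit was tested on simulated data. Errors are limma's standard errors (SE) or standard deviations (SD). Folds against a mean under log2 4 are bounds. The number of arrays limits precision. Tables and figures used Python 3.11.15, pandas 2.3.3 and matplotlib 3.10.9.

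The members, gene lists and tests were chosen with earlier results of these data known. Named genes follow a fixed rule (the isoforms and partners, the 2 largest rises and falls per complex without overlap in Sf1-Cre, X-linked members, differences between the lines, probe sets of opposite sign, and in each other list up to 2 genes with the lowest p); others named to spell out a count were picked with their values in view. Alternatives tried were quantile normalization, housekeeping centring, other filters and floors, the mean of all probe sets, trended robust moderation, fitting only the groups compared, a replicate block, stricter thresholds, listed symbols and leaving out each array; leaving out the 3 arrays with Spink8, an epididymal gene, at log2 10 or above was added after seeing the data.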

Additional observations from a re-analysis of the deposited data

Results flagged for a closer look

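Cox8c, a testis isoform of complex IV, was flagged because its change in Sf1-Cre exceeded that in Dhh-Cre by 1.45 ± 0.33 SE on the log2 scale (limma adjusted p = 0.0185), all 4 Sf1-Cre arrays being higher than both Dhh-Cre arrays. Ndufaf3, a complex I assembly factor, differed the same way by 1.22 ± 0.34 SE (adjusted p = 0.0369), with 4 of 4 Sf1-Cre arrays above both Dhh-Cre arrays. Ndufa4l2 differed by 0.64 ± 0.15 SE (adjusted p = 0.021), again with 4 of 4 above. Cox10, a heme O synthase gene, differed by -0.77 ± 0.18 SE (adjusted p = 0.0188), with 4 of 4 below. Each is the direct test of Sf1-Cre against Dhh-Cre, which equals the test of the difference between their changes from the shared controls, and rests on the label of the Dhh-Cre arrays. No Sf1-Cre array of the 33 named and tested genes stood apart by Dixon's criterion.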

How the results depend on the processing

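The planned Cox7b2 pair was not run, since Cox7b is not analysed here, and the pairs were adjusted over 2. Housekeeping centring turned the most values. In Sf1-Cre against control it gave 5 rises and 76 falls, and turned the values of Cox4i2 (-1.17), Cox4i1 (-1.46), Cox6a1 (-1.46), Cox7a2 (-1.41), Uqcr11 (-0.014), Uqcrh (-0.998), Atp5g1 (-0.19), Ndufaf6 (-0.30), Ndufa3 (-1.25), Uqcr10 (-1.02) and Ndufaf8 (-1.66). In Dhh-Cre it gave 4 and 75, and turned Cox4i2 (-1.35), Cox4i1 (-1.43), Cox6a1 (-1.39), Cox7a2 (-1.49), Ndufb11 (-0.059), Uqcrh (-1.02), Cox10 (-1.27), Ndufa3 (-1.04), Uqcr10 (-1.10) and Atp5o (-1.63); between the lines it left 2 passing, 1 of them higher. The mean of all probe sets turned Uqcr10 (-0.32 in Sf1-Cre, -1.01 in Dhh-Cre) and Uqcrc2 (0.28 in Sf1-Cre), gave 7 passing between the lines (5 higher, 2 lower), and made the Cox8c and Cox8a pair change -2.83 in Sf1-Cre and -3.71 in Dhh-Cre. By construction, requiring at least 2-fold left 23 passing in Sf1-Cre (20 higher, 3 lower), 25 in Dhh-Cre (19 higher) and 2 between the lines (0 lower), and adjusted p under 0.01 left 5 falls in Sf1-Cre and 0 between the lines. Trended moderation gave 2 lower between the lines. The mean of all probe sets also moved the medians of complex I (0.69 and 0.77 in Sf1-Cre and Dhh-Cre), complex III (0.21 and 0.09) and, in Sf1-Cre, complex IV (0.49), and that of ATP synthase between the lines (0.06).

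Replicate numbers did not pair the arrays: correlations of same-numbered arrays' deviations were 0.029, 0.02, -0.194, 0.029, -0.144 and 0.38. With the replicate block, which uses Sf1-Cre arrays 1 and 2 only, 4 genes fell in Sf1-Cre, and the changes of the Cox6b2 and Cox8c pairs were -3.64 and -4.50 over all Cre arrays (exact p = 0.0667 each, the smallest possible), -3.08 for Cox6b2 in Sf1-Cre and 1.11 between the lines. Under the block Cox6b2 (0.96) and Cox7b2 (1.20) passed between the lines while Cox10 (-0.85) and Ndufa4l2 (0.62) no longer did, and in Sf1-Cre Ndufaf2 (-0.92), Ndufaf3 (-0.61), Ndufa12 (-0.46), Uqcrfs1 (-0.36), Ndufa3 (0.48) and Cox4i2 (0.39) lost their calls.

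Leaving out 1 array gave 52 to 64 passing in Sf1-Cre (46 to 56 higher, 4 to 8 lower), 46 to 54 in Dhh-Cre (40 to 46 higher, 6 to 8 lower) and 0 to 4 between the lines (0 to 3 higher, 0 to 2 lower). The low of 4 falls came without control 2, and between the lines 0 passed without Dhh-Cre array 1 and 2 (1 higher) without Sf1-Cre array 3. The pair changes ran from -4.05 to -3.72 and from -4.78 to -4.22, and without either control (-3.73 and -3.94; -4.23 and -4.78) exact p could not go below 0.143. Without the 3 arrays with high Spink8, 0 genes passed between the lines, the pair changes were -3.97 and -4.51 (exact p = 0.1), and the Cox8c pair differed by 0.66 between the lines. The cause of these shifts was not tested. Quantile normalization, no filter, the log2 6 filter, the raised floor, fitting only the groups compared and listed symbols kept every count of passing genes within 1.5 times. Probe sets near log2 4, such as Cox4i2 and Cox6a2, have little signal over background.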

Other observations

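For several ubiquitous subunits the probe set with the highest signal changed far less than another probe set of the same gene; these were picked after their values were seen. Ndufb8, a membrane-arm subunit of complex I, changed by 0.26 in Sf1-Cre and 0.11 in Dhh-Cre, while its other probe set gave 3.57 and 3.28. Atp5c1, the rotor subunit of ATP synthase, rose by 0.64 and 0.66, beside 2.30 and 2.22 from the other. Ndufb6 gave 0.09 and 0.31, beside 1.35 and 1.47, and Ndufs4 gave 0.45 and 0.20, beside 1.53, 0.05 and 1.55 in Sf1-Cre. No probe sequences or positions were used here, and the cause was not tested.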
